A study of Mus musculus with 28 samples.

Results

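The keratin genes were taken as all protein-coding autosomal genes of the mouse GENCODE vM21 annotation whose symbol is Krt followed by digits alone, which gave 49 genes of 20807 protein-coding autosomal genes. They lie in 2 clusters. The type I cluster runs from Krt222 to Krt42 (chr11:99232761-100269871, mm10) and holds 25 of them, and the type II cluster runs from Krt80 to Krt18 (chr15:101347444-102032027) and holds 24, with Krt18 being a type I keratin by protein. Symbols with a letter suffix (Krt6a, Krt6b, Krt33a and Krt33b) fell outside this rule, as did Krt74, which the annotation does not list as protein-coding.

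Keratins are the intermediate filament proteins of epithelia. A type I (acidic) keratin pairs with a type II (basic) keratin to form the filament, and each epithelium, from simple ducts to epidermis and hair, uses its own pairs. Striatal neurons build their filaments from neurofilament proteins instead. Trimethylation of histone H3 at lysine 27 (H3K27me3) is laid down by Polycomb repressive complexes over silent developmental genes, whereas H3K4me3 marks active or poised promoters, mostly at CpG-rich sequence.

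The lists were made from CUT&RUN (CnR, cleavage of chromatin by an antibody-tethered nuclease) on medium spiny neuron (MSN) nuclei of mouse striatum. A2a nuclei came from Sun1-sfGFP;A2a-cre mice and D1 nuclei from Sun1-sfGFP;Drd1-cre mice, in which Cre switches on a GFP-tagged nuclear envelope protein in adenosine A2a or dopamine D1 receptor neurons, and nuclei are then pulled down by the tag (INTACT). All mice were C57BL/6J adults of both sexes, untreated, and carried the same Sun1-sfGFP reporter allele. Each of the 4 lists, H3K4me3 peaks (Abcam antibody) and H3K27me3 islands (Active Motif antibody) in each cell type, pools 2 replicates, so no value below has a replicate error, no difference was tested, and A2a and D1 values are set side by side without normalization between lists. For the H3K27me3 samples assigned to D1, the source name gives A2a, whereas the title and the cell type give D1. The title and cell type were followed, and every H3K27me3 comparison of A2a with D1 rests on that choice. The islands at the cell-type markers, given below, go with the title and cell type.

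The lists held 22551 A2a and 20080 D1 peaks, and 60191 A2a and 45760 D1 islands. An island is a run of windows enriched for reads, and its value is the number of reads in it. A2a islands covered 12.1% of the autosomes and D1 islands 7.43%, with a median of 62.5 and 37.2 reads per kb. The cell-type markers gave opposite islands in the lists: Tac1, a D1 marker, had an island of 9144 reads in A2a and 121 in D1, whereas Adora2a, an A2a marker, had none in A2a and 4153 reads in D1. The other D1 markers went with Tac1: Drd1 (1958 reads in A2a and 86 in D1), Pdyn (4641 and 50) and Isl1 (6620 and 229). The other A2a markers went with Adora2a: Drd2 (160 and 559), Penk (200 and 1365) and Gpr6 (none and 1265). Markers of other cells were read too. The share of all protein-coding autosomal genes with an H3K4me3 peak at the promoter was 59.3% in A2a and 56.8% in D1. A peak lay at 3 of 4 oligodendrocyte markers in each list. Of these, 2 had a peak in both lists, Mog in A2a alone and Mag in D1 alone. Microglial markers had a peak at 1 of 3 in A2a and 0 of 3 in D1, and ependymal and choroid plexus markers at 1 of 2 in each. None of the 3 astrocyte, 2 endothelial and 2 epithelial markers had a peak in either list. Both epithelial markers, Epcam and Cdh1, had an island in each list, as did Olig1 of oligodendrocytes and Cldn5 of endothelium. The share of all genes with an island in both was 14.7%. Aldh1l1 of astrocytes, Cx3cr1 of microglia, and Foxj1 and Ttr of ependyma and choroid plexus had one in A2a alone, beside 7.65% of all genes. All 4 A2a and all 4 D1 markers had a peak in both lists, beside 56.7%, so the presence of a peak did not separate the cell types.

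Promoter sequence of 4 keratin genes shows the range of DNA these marks were read over. The sequences are the RefSeq bases (GRCm38.p6) before the transcription start site (TSS), up to 250, and CpG dinucleotides are in capitals. Krt18 (chr15:102027966-102028179, plus strand, 8 CpG in 214 bases) and Krt71 (chr15:101743110-101743347, minus strand, 3 CpG in 238 bases) carried an island in both lists, Krt5 (chr15:101712906-101713155, minus strand, 2 CpG in 250 bases) in the A2a list alone, and Krt10 (chr11:99389365-99389614, minus strand, 2 CpG in 250 bases) in neither. For comparison, the median of 31396 autosomal promoters in the RefSeq table was 6 CpG in 250 bases. Bases inside the GENCODE gene were left off the Krt18 and Krt71 stretches. The full 250 bases before the RefSeq start held 12 CpG at Krt18 and 3 at Krt71.
Krt18: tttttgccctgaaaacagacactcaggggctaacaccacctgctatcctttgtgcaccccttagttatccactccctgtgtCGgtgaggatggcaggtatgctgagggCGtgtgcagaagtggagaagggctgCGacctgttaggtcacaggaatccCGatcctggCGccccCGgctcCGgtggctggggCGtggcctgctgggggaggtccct
Krt71: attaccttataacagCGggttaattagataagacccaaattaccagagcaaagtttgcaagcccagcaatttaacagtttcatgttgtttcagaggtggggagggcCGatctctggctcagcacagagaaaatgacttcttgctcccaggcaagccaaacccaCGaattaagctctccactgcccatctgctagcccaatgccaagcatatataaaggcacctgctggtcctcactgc
Krt5: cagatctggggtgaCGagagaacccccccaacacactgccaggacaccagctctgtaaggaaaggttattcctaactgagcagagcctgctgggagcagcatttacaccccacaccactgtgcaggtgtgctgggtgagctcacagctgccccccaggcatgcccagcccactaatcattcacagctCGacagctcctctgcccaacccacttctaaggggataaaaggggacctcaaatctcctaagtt
Krt10: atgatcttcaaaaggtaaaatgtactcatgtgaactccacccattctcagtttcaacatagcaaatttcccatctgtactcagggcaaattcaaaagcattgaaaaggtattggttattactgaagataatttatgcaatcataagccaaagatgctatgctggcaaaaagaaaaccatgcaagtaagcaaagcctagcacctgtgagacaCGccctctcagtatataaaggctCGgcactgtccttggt
The letters TATAAA, read on both strands, occurred in the Krt71 and Krt10 stretches, in 16 of the 35 members with an entry in the table and in 12.4% of all its autosomal promoters. CACCTG, an E-box, occurred in all 4 of these chosen stretches, but in 14 of 35 members and in 17.4% of promoters. TGAGTCA, the AP-1 motif, occurred in none of the 35 members and in 4.50% of promoters, and GGGCGG, a GC box, in 2 of 35 and in 33.0%. These counts used the 250 bases before the RefSeq start. At Krt14, Krt7 and Krt8 that start lay 1518, 1360 and 140 bp downstream of the GENCODE TSS used for the marks. The table matched 35 of the 49 members, which is 71.4% and under the 80% needed, so a comparison of promoter sequence between marked and unmarked members is void and was not made. The members without an entry were Krt1, Krt4, Krt15, Krt16, Krt17, Krt19, Krt35, Krt80, Krt81, Krt83, Krt86, Krt87, Krt88 and Krt222.

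H3K4me3 was scarce at keratin promoters, and H3K27me3 was frequent in the A2a list. A promoter was the window from 2 kb upstream to 1 kb downstream of the TSS. An H3K4me3 peak lay in 4 of 49 keratin promoters in A2a (8.16%, 95% Wilson interval 3.22 to 19.2%), where the share of all protein-coding autosomal genes was 59.3%. In D1 the count was 2 of 49 (4.08%, 1.13 to 13.7%), beside 56.8% of all genes. H3K27me3 islands lay in 21 of 49 promoters in A2a (42.9%, 30 to 56.7%), beside 22.4% of all genes. In D1 they lay in 6 of 49 (12.2%, 5.73 to 24.2%), close to the 15.8% of all genes. These intervals treat genes as independent draws, although neighbouring members can share an island. They measure neither the counting of reads nor the spread between libraries, and no difference from all genes was tested. Keratin paralogs of near-identical sequence can lose reads to the filter on unique mapping, so their absence of a mark is uncertain, and this was not tested.

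**Figure D1:**
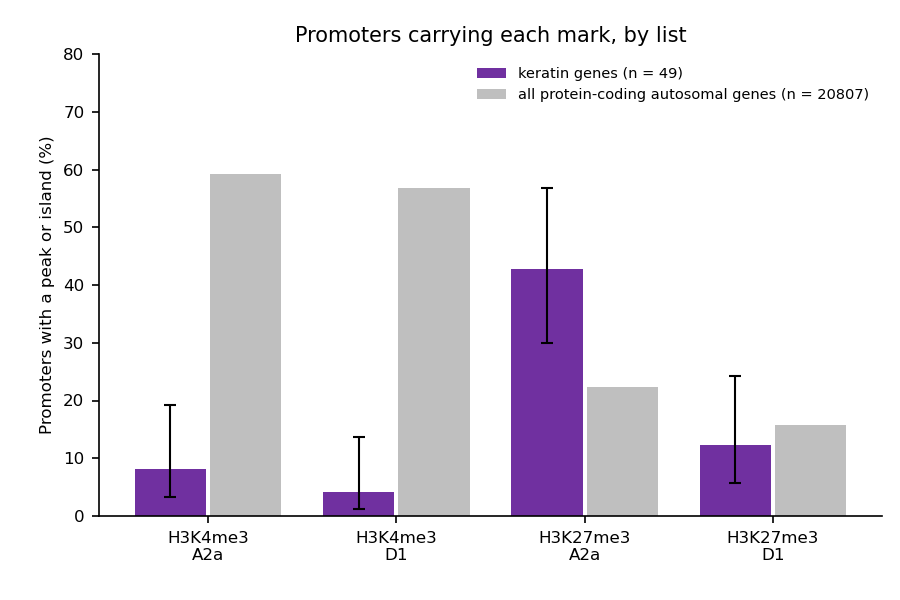
Bars give the share (%) of promoters with an H3K4me3 peak or H3K27me3 island in each list, for the 49 keratin genes with 95% Wilson intervals and for all 20807 protein-coding autosomal genes. Keratin genes are far below all genes for H3K4me3 in both lists, above them for H3K27me3 in A2a (42.9% beside 22.4%) and close to them in D1 (12.2% beside 15.8%).

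Set against each other, the lists gave 6 members with an island in both (12.2%, beside 14.7% of all genes) and 15 with an island in A2a alone (30.6%, beside 7.65%). None of the 49 had an island in D1 alone (Wilson interval 0 to 7.27%, beside 1.05%). An H3K4me3 peak in both lists was found at 2 members (4.08%, beside 56.7%). Both marks in A2a were found at 1 member, Krt73 (2.04%, beside 9.84%). No mark in any list was found at 25 members (51.0%, beside 27.4%). The D1 count of 6 depended on the window, and rose to 14 with 5 kb either side of the TSS and to 15 over whole genes, whereas the A2a count was 26 under both. With equal numbers of islands taken from each list, A2a had 18 members with an island and D1 had 6.

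The groups of keratins by role are small, and their counts are a description to be read beside the shares of all genes, 22.4% with an island in A2a and 15.8% in D1. Among the simple epithelial keratins, 4 of 6 carried an island in A2a and 3 of 6 in D1. Krt8 and Krt18, which pair with each other and are the first keratins of the embryo, lie next to each other at the end of the type II cluster, and the windows of both carried some of the strongest keratin islands. At Krt8 the island held 1020 reads over 11 kb in A2a (95% Poisson interval 958 to 1085) and 413 reads over 7.2 kb in D1 (374 to 455). At Krt18 it held 884 reads over 9.8 kb in A2a and 319 over 6.2 kb in D1. Within their own lists these islands stood at similar ranks, at percentile 94.9 by reads in A2a and 94.2 in D1 for Krt8, and at 93.6 and 91.2 for Krt18. Krt7, a keratin of ducts and glands, had 669 reads over 7.6 kb in A2a and 241 over 6 kb in D1. Krt19, a type I keratin of ducts and simple epithelia, had an A2a island of 543 reads over 5.8 kb that covered 73.8% of the gene and reached 336 bp of its window. A D1 island of 191 reads lay inside that region and stopped 0.665 kb short of the window. Krt20 of the gut and Krt23 had no mark at the promoter in any list, although an island lay inside Krt23 in both lists, over 33.0% of the gene in A2a and 25.2% in D1.

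Among the 5 basal and hyperproliferative keratins, 3 carried an island in A2a and none in D1. Krt5, the type II keratin of basal keratinocytes, had 338 reads over 6.4 kb in A2a, with a second island of 94 reads. The D1 island nearest to Krt5 lay 6.70 kb from its window. Its partner Krt14 had no island in window or gene, with the nearest 52.1 kb away in A2a and 59.5 kb in D1. Krt15, a basal and hair follicle stem cell keratin, had an A2a island of 672 reads over 10.2 kb that covered the whole gene and window. A D1 island of 150 reads over 5.2 kb overlapped that region, 2.13 kb from the window. Krt17, a keratin of skin appendages and injured epidermis, had a smaller A2a island of 136 reads over 2 kb at percentile 19.5. That island lay upstream of Krt17 and overlapped the Krt42 gene, not Krt17. The nearest D1 island was 113 kb away. Krt16, induced in injured epidermis, had no mark.

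Of 13 suprabasal and other stratified epithelial keratins, 5 carried an island in A2a and none in D1. Krt4 and Krt13, the partners of mucosal epithelia such as the oesophagus, both belonged to these. The islands held 466 reads over 7 kb at Krt4 and 220 reads over 3.6 kb at Krt13. The island in the Krt4 window lay upstream of Krt4 and overlapped the Krt79 gene, not Krt4. A further A2a island of 241 reads over 3 kb overlapped the Krt4 gene outside its window. Krt78 had 457 reads over 7.6 kb, Krt79 had 248 over 4.2 kb and Krt76, of the palate, had 226 over 3.8 kb. The island in the Krt79 window lay upstream of that gene. The distance from these 5 windows to the nearest D1 island ran from 1.07 kb at Krt4 to 32.9 kb at Krt76. Krt1 and Krt10, the partners of the suprabasal epidermis, carried no island in window or gene in either list, and the nearest lay 23.6 kb away in A2a and 75 kb in D1 for Krt1, and 86.6 and 86.4 kb for Krt10.

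Of 13 hair and nail keratins, 6 carried an island in A2a and 1 in D1. Of 7 keratins of the inner root sheath, 2 did in A2a (28.6%) and 1 in D1 (14.3%), which is close to the shares of all genes, 22.4 and 15.8%. Krt87 had the densest A2a island at any member promoter, with 1012 reads over 9.4 kb (108 per kb), and in D1 488 reads over 9 kb (54.2 per kb). These were at percentile 94.9 and 95.6 of their lists. Krt71, an inner root sheath keratin, had the longest, with 1031 reads over 14 kb in A2a, and 186 reads over 3.8 kb in D1. Here the lists differed most in rank, at percentile 95 and 79.4. Krt90, placed with the companion layer and other keratins, of which it was the only 1 of 3 with an island, had 711 reads over 10.8 kb in A2a, in an island that also reached the window of the hair keratin Krt82, and 201 reads over 5.6 kb in D1.

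A further 6 keratins of the hair (Krt34, Krt35, Krt82, Krt83 and Krt84 of the hair shaft, and Krt73 of the inner root sheath) carried an island in A2a alone. Krt31, Krt32, Krt36, Krt39, Krt40, Krt81 and Krt86 of the hair and nail, and Krt25 to Krt28 and Krt72 of the inner root sheath, carried none at the promoter in either list. Krt34 had 250 reads over 5 kb upstream of the gene, in an island that overlapped the Krt31 gene. Krt84 had 186 reads over 3 kb, with a further 475 reads in an island beyond its window, and a D1 island of 278 reads over 8.6 kb ended 20 bp from its window and covered 86.9% of the gene. The inner root sheath keratin Krt73 had 146 reads over 2.6 kb. Krt35 had 107 reads over 1.4 kb and Krt83 had 103 over 1.6 kb, which were near the bottom of the list at percentiles 6.56 and 5.22. A second island in the Krt35 window held 71 reads. Over all 15 members with an island in A2a alone, the nearest D1 island lay 0.02 to 113 kb from the window (median 7.71 kb), 9 were within 10 kb, and at 5 (Krt15, Krt19, Krt84, Krt82 and Krt4) a D1 island overlapped the A2a island outside the window.

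**Figure D2:**
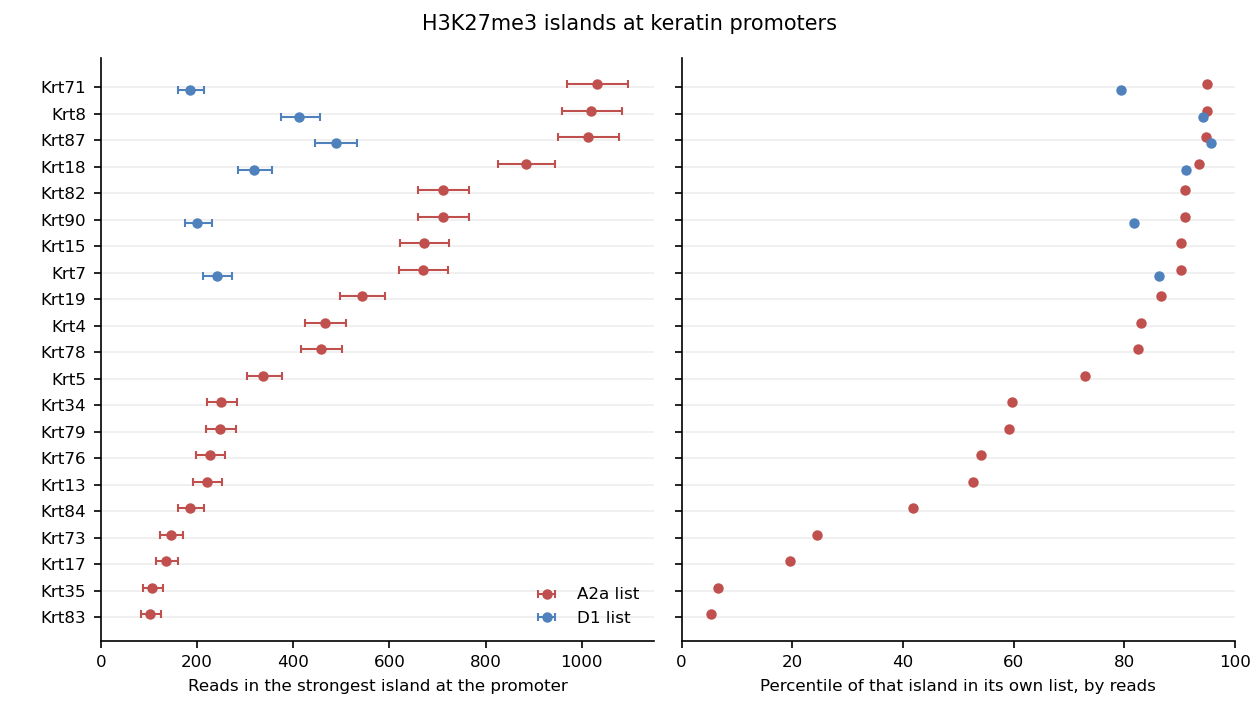
Points give, for the 21 members with an H3K27me3 island at the promoter, the reads of the strongest island with 95% Poisson intervals (left, linear axis) and its percentile by reads within its own list (right). At the 6 genes with an island in both lists, the D1 islands hold fewer reads than the A2a islands and stand between percentiles 79.4 and 95.6 of their list, beside 90.2 to 95 for A2a. The A2a islands at the other 15 genes run from 5.22 to 91.1.

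At the 6 members marked in both lists, only the strongest promoter island of each list was compared. The A2a island also overlapped a further D1 island of 77 reads at Krt71, 78 at Krt90 and 52 at Krt18. A second A2a island, of 200 reads, reached the Krt90 window. In the strongest islands, A2a reads were 2.07 times (Krt87) to 5.54 times (Krt71) the D1 reads, and reads per kb were 1.5 times (Krt71) to 2.19 times (Krt7). The medians of the lists differed in the same direction, with 211 reads an island in A2a and 104 in D1. Whether depth or the control used for island calling accounts for these ratios was not tested.

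The clusters differed in how much of them islands covered. The type II cluster (685 kb) was 30.1% covered in A2a by 39 islands with 14455 reads (70.0 per kb) and 14.4% covered in D1 by 27 islands with 3978 reads (40.3 per kb), where the autosomes were at 12.1 and 7.43%. The type I cluster (1037 kb) was 5.75% covered in A2a by 15 islands with 3836 reads (64.4 per kb) and 2.49% in D1 by 7 islands with 935 reads (36.2 per kb), below the autosomes in both lists. By protein, 14 of 23 type II keratins carried an island in A2a (60.9%) and 5 in D1 (21.7%). Of 26 type I keratins, 7 did in A2a (26.9%) and 1 in D1 (3.85%), that one being Krt18 in the type II cluster. The shares of all genes were 22.4% in A2a and 15.8% in D1. No member of the type I cluster carried an island at its promoter in D1. In the 50 kb on either side, islands were absent in both lists except after Krt18, where A2a coverage was 14.0% and D1 coverage was 0.

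Within each cluster, a wide stretch without members separates 2 blocks of keratin genes. Promoter counts by block are to be read beside 22.4% of all genes with an island in A2a and 15.8% in D1. In the type I cluster the first block, from Krt222 to Krt40 with 12 members that include the epidermal Krt10 and the inner root sheath keratins Krt25 to Krt28, carried no island at any promoter and was 1.61% covered in A2a and 2.45% in D1. The second block, from Krt34 to Krt42 with 13 members, had 6 promoters with an island in A2a (46.2%) and none in D1, and was 14.7 and 3.78% covered. Between them, the run of keratin-associated protein genes was 4.13 and 1.90% covered. In the type II cluster the first block, Krt80 to Krt75 with 11 members, had 6 and 3 promoters with an island (54.5 and 27.3%) and was 33.6 and 23.1% covered. The second block, Krt5 to Krt18 with 13 members, had 9 and 3 (69.2 and 23.1%) and was 37.2 and 12.2% covered. A2a coverage was therefore 3.89 and 3.05 times D1 coverage in the blocks from Krt34 and from Krt5, 1.45 times in the block from Krt80, 0.658 times in the block from Krt222, and 1.63 times over the autosomes.

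**Figure D3:**
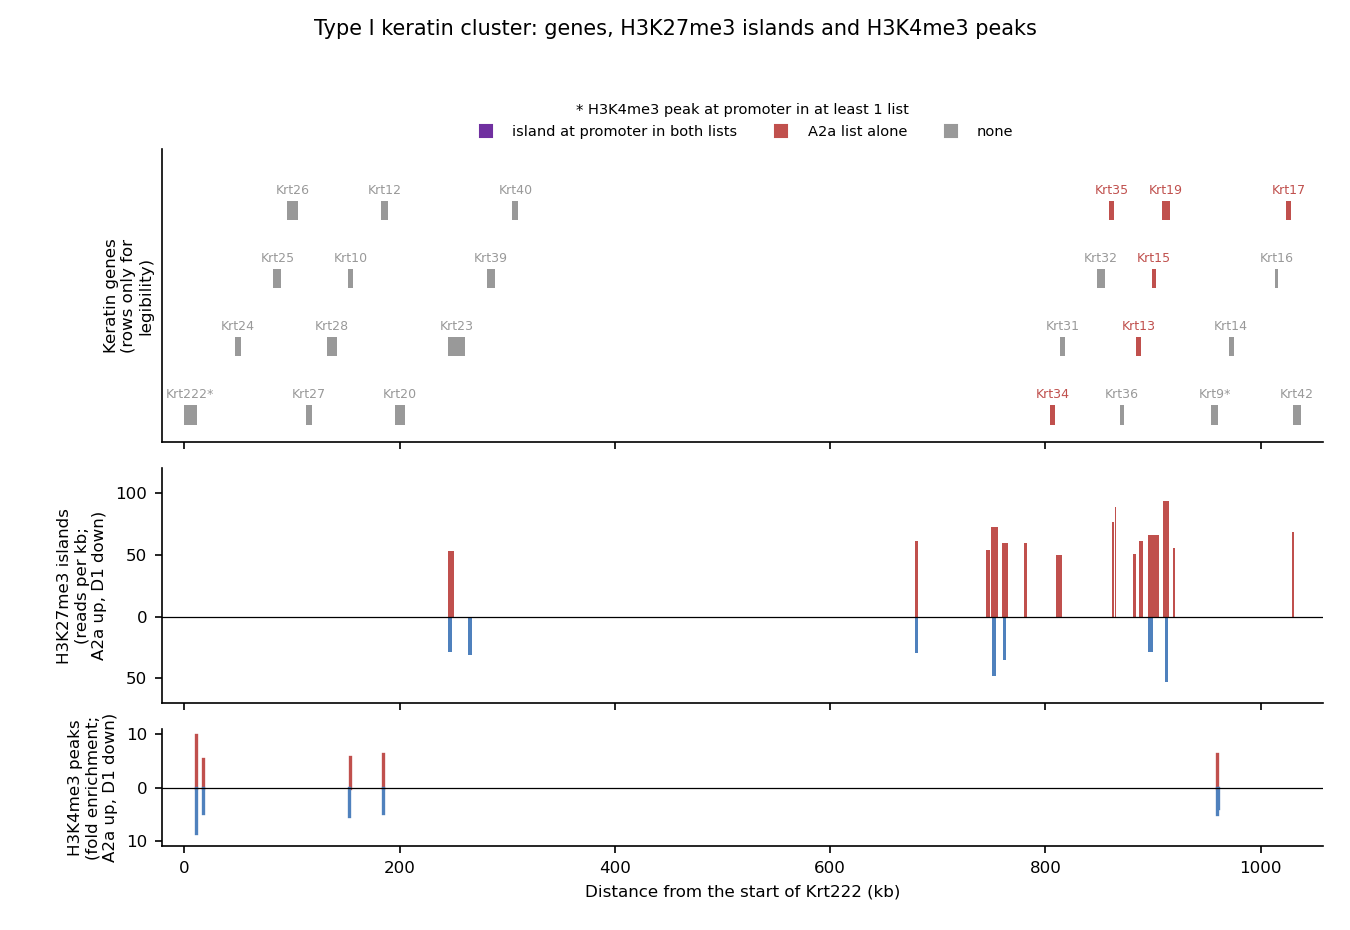
Map of the type I cluster, with distance from the start of Krt222 (kb) on the x axis. The top row shows the 25 members, coloured by their promoter islands, the middle row H3K27me3 islands (reads per kb) and the bottom row H3K4me3 peaks (fold enrichment), with A2a upward and D1 downward. The block from Krt222 to Krt40 holds 1 A2a and 2 D1 islands, and that from Krt34 to Krt42 holds 9 and 2.

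**Figure D4:**
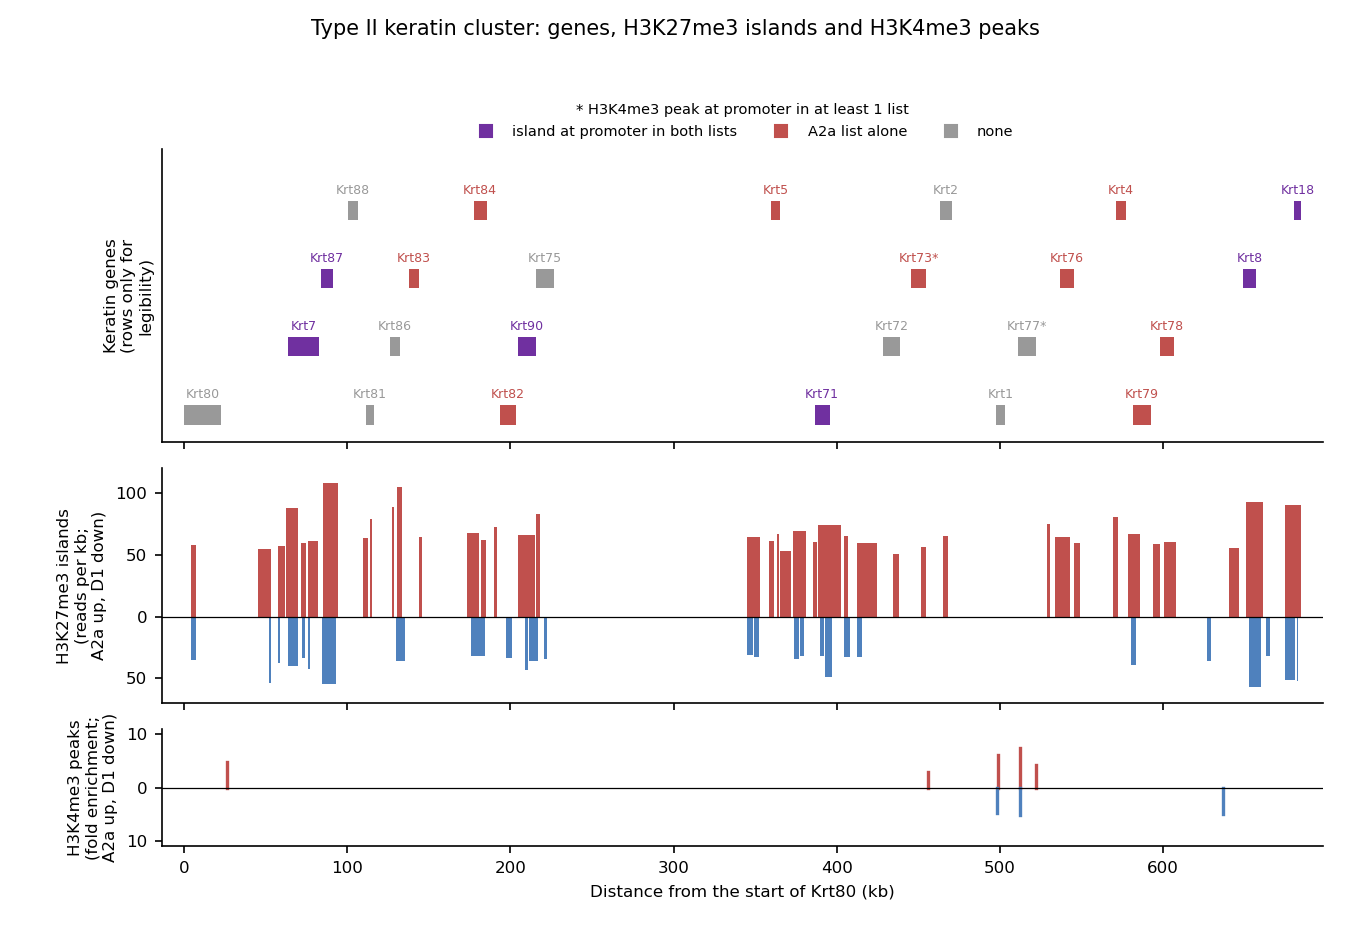
Map of the type II cluster, with distance from the start of Krt80 (kb) on the x axis and the same tracks. Islands cover 30.1% of the cluster in A2a and 14.4% in D1, and all 6 promoters with an island in both lists are here.

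H3K4me3 at keratin promoters was carried mainly by Krt222, an atypical keratin. Its peak was enriched 9.85-fold over local background across 1395 bp in A2a and 8.55-fold across 1293 bp in D1, with -log10 q of 108 and 61.1. The summits lay at -110 and 135 bp from the TSS, and the peaks were at percentile 64.6 and 56.6 of their lists by -log10 q. Krt222 is the first gene of the type I cluster, and its neighbour outside the cluster, Smarce1, also had a peak in both lists. Krt9, a keratin of palm and sole epidermis, was enriched 6.36-fold in A2a and 4.99-fold in D1, with summits at 919 and 926 bp downstream of the TSS, and a second D1 peak of 3.80-fold overlapped the window. The other 2 peaks were in A2a alone. That at Krt77 was enriched 4.30-fold over 424 bp, and that at Krt73 2.93-fold over 258 bp with a -log10 q of 2.55, at percentile 0.106 of the list. A stricter limit of 5 on -log10 q removed the peak at Krt73. The D1 count of 2 became 5 with 5 kb either side of the TSS, 6 over whole genes and 4 with the TSS of any annotated transcript.

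Further H3K4me3 peaks lay inside keratin genes, toward their 3′ ends, and these genes were picked out after their values had been seen. At Krt10, Krt1 and Krt77, all keratins of stratified epithelia, a peak in both lists overlapped the last coding exons. The Krt10 peak was enriched 5.64-fold over 1662 bp in A2a and 5.37-fold over 1564 bp in D1, with summits at 69.2 and 66.9% of the gene length from the TSS. The Krt1 peak had 6.06 over 810 bp and 4.76 over 378 bp, at 82.0 and 89.0% of the gene. The Krt77 peak had 7.33 over 1123 bp and 5.13 over 676 bp, at 90.0 and 90.5%. The median fold enrichment of all peaks was 6.65 in A2a and 6.33 in D1, and all 3 peaks were below it in D1. By -log10 q the Krt10 peak stood at percentile 52.1 in A2a and 47.5 in D1, whereas the Krt1 peak stood at 26.2 and 17.1 and the Krt77 peak at 34.7 and 21.7. A peak also lay in Krt12, the keratin of the cornea, at 77.0 and 77.2% of the gene, with 6.22 in A2a and 4.83 in D1. It reached coding exons 6 and 7 of 8 in A2a and no coding base in D1.

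The tail exons under these peaks are dense in CpG. Over the last 2 coding exons of each of the 49 members, CpG per 100 coding bases was 14.9 at Krt10, 11.1 at Krt77 and 8.98 at Krt1, which were the highest 3 of 49. At the 45 members without a peak there, it ran from 0.333 to 7.58 with a median of 2.92, and at Krt12 it was 4.82. Glycine codons, which begin with GG, made up 55.3% of codons in these exons at Krt10, 44.5% at Krt1 and 32.3% at Krt77. Krt9 and Krt2, with 53.0 and 46.4% glycine codons but 0.333 and 1.19 CpG per 100 bases, had no peak over these exons. Stretches of 200 coding bases under the A2a peaks, taken where CpG is densest, show this, with CpG in capitals and the gene's strand given. They are Krt10 exon 7 (chr11:99386058-99386257, minus strand, 37 CpG), Krt1 exon 9 (chr15:101846039-101846238, minus strand, 25 CpG) and Krt77 exon 9 (chr15:101859867-101860066, minus strand, 26 CpG), read from GRCm38.p6. None of the 3 stretches holds the summit of its peak. Coding sequence made up 38.1% of the A2a peak at Krt10, 50.9% at Krt1 and 22.1% at Krt77. Over these whole peaks, CpG relative to that expected from base content was 0.825, 0.606 and 0.494. The median of all A2a peaks on chromosomes 11 and 15 was 0.579. In D1 the 3 peaks had 0.842, 0.667 and 0.629, beside a median of 0.620.
Krt10: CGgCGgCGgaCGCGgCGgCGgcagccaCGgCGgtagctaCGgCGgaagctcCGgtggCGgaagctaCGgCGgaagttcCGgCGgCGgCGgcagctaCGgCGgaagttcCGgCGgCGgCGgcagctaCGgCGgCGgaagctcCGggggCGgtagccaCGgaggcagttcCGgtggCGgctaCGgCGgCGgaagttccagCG
Krt1: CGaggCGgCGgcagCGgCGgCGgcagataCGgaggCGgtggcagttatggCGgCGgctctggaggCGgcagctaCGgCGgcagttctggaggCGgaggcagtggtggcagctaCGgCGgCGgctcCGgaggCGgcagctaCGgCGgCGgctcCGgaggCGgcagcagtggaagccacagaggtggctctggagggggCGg
Krt77: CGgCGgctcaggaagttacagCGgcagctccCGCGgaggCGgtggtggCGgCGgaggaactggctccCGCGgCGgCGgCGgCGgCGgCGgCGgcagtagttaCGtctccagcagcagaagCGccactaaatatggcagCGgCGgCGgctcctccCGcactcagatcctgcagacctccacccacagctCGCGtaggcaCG
The peaks at Krt10, Krt12 and Krt1 also overlapped the window of an annotated transcript start inside or beside the gene. The tail peak at Krt77 did not. At Krt10 this was the window of Gm11940 and at Krt12 that of A830036E02Rik, neither of them protein-coding. The Krt12 peak also overlapped the A830036E02Rik gene itself. Among all autosomal peaks, 32.2% in A2a and 27.9% in D1 lay outside every such window, and of these 7.76 and 7.03% overlapped coding sequence. The tail exons were looked at after the peaks had been seen, so this is a description. Reads in repeats of glycine codons depend on how uniquely they map, and the part of mapping and of base composition in these peaks was not tested.

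**Figure D5:**
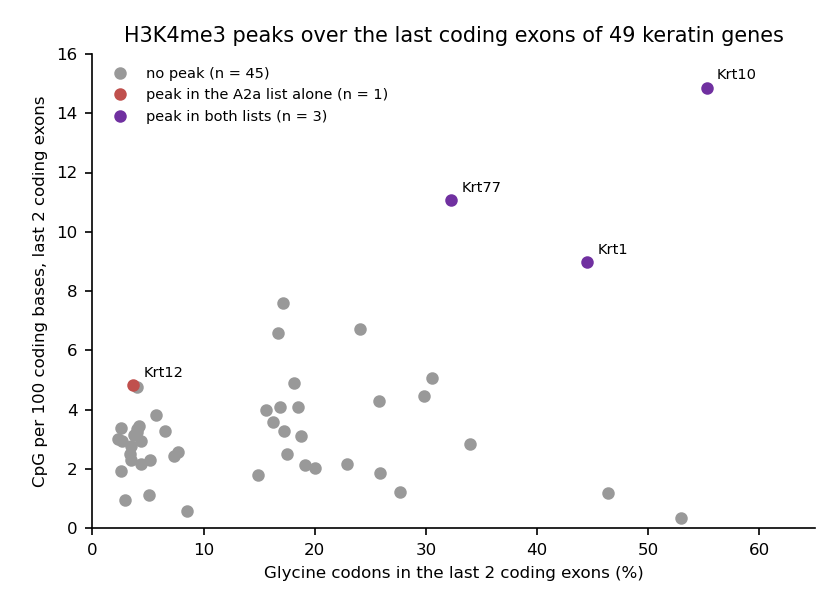
Each point is 1 of the 49 keratin genes, with glycine codons (%) on the x axis and CpG per 100 coding bases on the y axis, both over the last 2 coding exons, coloured by whether an H3K4me3 peak overlaps these exons. The 3 genes with a peak in both lists, Krt10, Krt77 and Krt1, have the most CpG, while Krt9 and Krt2 are rich in glycine codons but poor in CpG and have no peak.

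Apart from these, no keratin gene held a peak in either list. In the clusters as a whole, H3K4me3 peaks covered 0.608% of the type I cluster in A2a and 0.478% in D1, and 0.422 and 0.202% of the type II cluster, beside 1.11 and 0.95% of the autosomes. Peaks outside keratin genes lay near Krt222 in both lists (5.28-fold in A2a and 4.76-fold in D1), 1.21 kb from the window of Krt80 in A2a, and between Krt78 and Krt8 over 327 bp in D1. For the 45 members without a promoter peak in A2a the nearest one lay 1.21 to 199 kb from the window (median 58.5 kb), and for the 47 in D1 1.40 to 257 kb (median 57.4 kb).

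Known partner pairs can be read across the clusters, although the pairs were picked after the values had been seen. Both members of the simple epithelial pair Krt8 and Krt18 had an island in both lists. Both windows of the mucosal pair Krt4 and Krt13 had one in A2a alone, although that at Krt4 overlapped the Krt79 gene and not Krt4. A further A2a island overlapped the Krt4 gene outside its window. Both members of the suprabasal pair Krt1 and Krt10 had none. The basal pair was split, with an island at Krt5 in A2a and none at Krt14.

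Other genes of the epithelial programme and of the filament family were counted in the same way, beside shares of all genes of 59.3 and 56.8% with a peak and 22.4 and 15.8% with an island in A2a and D1. Among 17 other intermediate filament genes, 11 had an H3K4me3 peak in A2a and 10 in D1 (64.7 and 58.8%, near all genes), and 7 and 5 had an island. The neurofilament gene Nefl had a peak of 5.97-fold in A2a and 6.65-fold in D1, with an island of 639 reads in A2a alone, and Vim, the filament of mesenchyme and glia, had a peak and an island of 1025 and 484 reads. Among 14 epithelial transcription factors 4 had a peak in each list and 11 and 8 an island, and among 10 epithelial adhesion genes 3 and 2 had a peak and 9 and 9 an island. Among 17 desmosome genes 6 and 6 had a peak and 11 and 8 an island. Among 15 cornified envelope genes, which barrier keratinocytes use, none had a peak and 6 and 5 an island. The 57 keratin-associated protein genes, which make the matrix around hair keratins, had no peak, and 18 had an island in A2a and 9 in D1 (31.6 and 15.8%, the latter equal to the share of all genes).

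In the share of members without any mark, keratin genes lay between 2 other clustered families, as did all genes. All 39 Hox genes had an island in both lists, and 2 had a peak in A2a and 1 in D1. Neighbouring Hox genes often shared the same island. Of 121 vomeronasal type 2 receptor genes, 2 had an island in A2a and 4 in D1, and none had a peak. No mark in any list was found at 117 of them (96.7%), beside 25 of 49 keratin genes (51.0%) and 27.4% of all genes. The filter on unique mapping can leave absence of a mark uncertain in this family too, which was not tested.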

How the data were processed

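The 4 deposited lists pool 8 of the 28 samples, made by CnR on about 10000 A2a or D1 nuclei each. The other 20 samples (N2a cells, IgG, no antibody, further antibodies) were not analysed here. For these lists, alignment to mm10 used bowtie2 (2.1.0), samtools (0.1.19) kept reads of mapping quality 20 or more, Picard (2.23.4) removed duplicates, and fragments of 150 to 500 bp were retained. MACS2 (2.2.7.1, q 0.01) gave the H3K4me3 peaks. Each peak has 3 deposited values used or read here: a fold enrichment, which is a ratio to local background, a −log10 q-value, and a score derived from that q-value. SICER (2.0, window 200 bp, gap 600 bp, false discovery rate 0.01) gave the H3K27me3 islands, and its control library is not given in the sources used here. The deposited island value is a count of reads, which the authors did not normalize. The study describes its replicates as technical in one place and as biological in another, and the lists pool them. It gives a range of sequencing depth over all samples, but the totals behind each list are not given in the sources used here. Reads carry no molecular identifiers, and the Poisson intervals (95%) cover the counting error of reads only. The Wilson intervals (95%) treat genes as independent draws and hold no error between libraries.

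Coordinates are 1-based on mm10 (GRCm38), genes are those of GENCODE vM21, and the TSS is the annotated 5′ end. The promoter window runs 2 kb upstream and 1 kb downstream, and an overlap of 1 bp was enough. Members under 1 Mb apart formed a cluster, which was divided into blocks at its widest gap. Percentiles are within a list, by −log10 q or by reads. Coding exons are those of the longest coding transcript. Each member with a mark at its promoter is given with the values of its strongest peak or island, and other members by counts and distances. The members and lists were chosen with earlier results of these data known. With 1 pooled list a group, no test was run. The overlap code was tested on simulated data and recovered 200 of 200 planted promoter hits. Python (3.11.15), numpy (2.4.6), pandas (2.3.3), scipy (1.17.1) and matplotlib (3.10.9) were used. Alternatives changed the window, TSS, overlap, gene set, thresholds, list sizes and merging of islands.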

Additional observations from a re-analysis of the deposited data

How the results depend on the processing

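The 8 counts and coverages were recomputed under 54 alternatives, of which 37 stayed near the reported value (a count within 1.5 times) and 17 did not. Because the lists pool both replicates, no replicate could be left out. No paired analysis was possible because each list holds 1 value for its replicates together. With 5 kb either side of the TSS, the promoters with an H3K4me3 peak numbered 8 in A2a and 5 in D1, and those with an H3K27me3 island in D1 numbered 14. Over whole genes, D1 had 6 members with a peak and 15 with an island, and with the TSS of any annotated transcript 4 members with a peak. The A2a island count ran from 17 to 26. Coverage of the type I cluster in A2a was 4.90% with equal numbers of islands, 7.69% with islands within 5 kb merged and 12.1% over member genes alone, where D1 had 5.21%. Coverage of the type II cluster in A2a and D1 was 35.8 and 18.5% with islands merged, 27.2 and 12.6% with 50 kb added on either side, and 45.7 and 25.5% over member genes alone, and in D1 13.1% with islands of at least 2000 bp. A2a stayed above D1 in each of these pairs. The limits are the depth of each list, which is not given in the sources used here, the unnamed control of the islands and the absence of replicate values. The source name of the D1 H3K27me3 samples also conflicts with their title, although the marker islands go with the title. Differences between A2a and D1 therefore cannot be told apart from differences between libraries.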

Other observations

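Other genes lie inside the keratin clusters. Between the ends of the type I cluster, 23 keratin-associated protein genes had no H3K4me3 peak in either list, and 3 of them had an island in A2a and 2 in D1 (Krtap16-1 and Krtap17-1 in both lists, Krtap29-1 in A2a alone). The shares of all genes with an island were 22.4% in A2a and 15.8% in D1. Of 18 further genes there, 1 had an island, in both lists, and none had a peak, beside 14.7% of all genes with an island in both. Of the 4 keratin genes with a letter suffix, Krt6a, a partner of Krt16 in injured epidermis, had an island at its promoter in both lists. Krt6b, Krt33a and Krt33b had none at the promoter, although an A2a island of 143 reads over 2.4 kb lay inside the Krt33a gene.

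Among the first 3 genes on either side, 4 of 6 at the type I cluster and 5 of 6 at the type II cluster had an H3K4me3 peak in both lists, beside 56.7% of all genes. None of these 12 had an island at its promoter, beside 22.4% of all genes in A2a and 15.8% in D1.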
